A study of Mus musculus with 12 samples.

Results

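Interferon-stimulated genes were followed after silencing of UBF in NIH3T3, a mouse fibroblast line that grows without limit in culture. UBF is the product of Ubtf and helps RNA polymerase I to transcribe ribosomal RNA genes in the nucleolus. The 42 genes came from a list of known interferon-stimulated genes and their transcription factors, without the RNA sensors, and were listed by name rather than by a threshold on measured values. The list was, however, chosen with earlier results of these data known. Of the 42 genes, 39 had a value among the 19938 genes measured. Ifi44 was not matched to a probe set, and Isg15 and Gbp2 were matched only by probe sets that carry several gene symbols, so these 3 genes were not analysed here. No filter on low values was applied before the tests, and all 39 genes were tested in each comparison.

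All cells were incubated with the transfection reagent Dharmafect 2 and were harvested after 48 h. Mock cells received no siRNA, and the other groups received 40 nM of sirEGFP (an siRNA named for EGFP), of sirUBF oligo #1 (oligo 1) or of sirUBF oligo #2 (oligo 2). Each of the 4 groups held 3 Affymetrix arrays, described in the series' design text as biological replicates. The oligos were each compared with sirEGFP and with Mock, so that those comparisons share control arrays, and then with each other.

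Interferons are secreted proteins that bind cell-surface receptors and activate JAK kinases, which phosphorylate STAT transcription factors. Complexes of STAT proteins with IRF9 then bind interferon-stimulated response elements (ISREs) near target genes, while pairs of STAT proteins bind gamma-activated sites (GAS). The target genes encode proteins that block viral entry, replication and assembly, that modify other proteins with ISG15, ubiquitin or ADP-ribose, and that prepare peptides for class I antigen presentation. Fibroblasts respond to interferons and can make interferon beta after sensing viral nucleic acid.

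Promoter windows from RefSeq (build GRCm38.p6, from 250 bases before to 50 bases after a transcription start) were found for 34 of the 42 genes. The ISRE core was searched as GAAA, any 2 bases and GAAA, and the GAS core as TTCNNNGAA, each on both strands. An ISRE core lay in the windows of 13 of the 34 genes (38.2%), against 3.99% of all 27025 genes with a window. A GAS core lay in 8 of the 34 (23.5%), against 9.55% of all genes. A match is a run of letters and not a measured binding site. The following 30-base stretches show the ISRE cores (in capitals) of Ifitm3, which changed most clearly, of Trim21 and Stat2, which were higher on average without being called, and of Ifit1 and Oas1a, classical targets that were not called. Each is written in the direction of its gene's transcription.
Ifitm3, chr7:141010714-141010743, minus strand: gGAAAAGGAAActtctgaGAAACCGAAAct
Trim21, chr7:102565447-102565476, minus strand: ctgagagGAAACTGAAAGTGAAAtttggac
Stat2, chr10:128270266-128270295, plus strand: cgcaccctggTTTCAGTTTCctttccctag
Ifit1, chr19:34640785-34640814, plus strand: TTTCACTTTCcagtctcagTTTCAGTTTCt
Oas1a, chr5:120907523-120907552, minus strand: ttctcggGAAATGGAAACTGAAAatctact
The cores of Ifitm3 span bases 3 to 29 and those of Trim21 bases 14 to 29 after the start. Those of Ifit1 span bases -104 to -76, those of Oas1a bases -20 to -5, and the single core of Stat2 bases -222 to -213 relative to the start.

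The median log2 value of an array was between 5.38 and 5.54. All 10 fibroblast markers were measured, with no value under 5.73 on any array. The arrays sirEGFP 1, oligo 1 array 1 and oligo 1 array 2 (called the 3 outlying arrays below) were farthest out on the principal axis of within-group variation, which held 41.5% of that variance. Leaving them out left 1 array of oligo 1 and 2 of sirEGFP. Comparisons with oligo 1 in that setting rest on 1 array of it and cannot show whether a call holds, so only the changes are given. Ubtf stood between 8.04 and 8.68 on the 6 control arrays and between 7.49 and 7.998 on the 6 knockdown arrays, without overlap. By limma's moderated test with Benjamini-Hochberg adjustment over all genes, the fall of Ubtf against Mock was called for oligo 1 (-0.74 ± 0.17, SE, adjusted p = 0.0252) and for oligo 2 (-0.79 ± 0.17, adjusted p = 0.0146). The oligo 1 call was lost without any 1 Mock array or without oligo 1 array 2 or 3 (adjusted p from 0.0514 to 0.131), and the oligo 2 call without Mock 1, Mock 2 or oligo 2 array 3 (0.0654 to 0.0827). Without the 3 outlying arrays the oligo 1 change was -0.89. Against sirEGFP the changes of -0.55 (adjusted p = 0.107) and -0.61 (adjusted p = 0.0771) did not pass, and the oligo 2 change passed with the replicate number as a block (adjusted p = 0.0115). A gene is called below where its adjusted p was under 0.05.

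Few interferon-stimulated genes changed when UBF was silenced, and those that did rose in most cases. With the mean of both oligos against sirEGFP, 2 of the 39 genes rose and 0 fell, against 1.21% of all genes called higher and 0.722% called lower. The 2 genes were Ifitm3, which encodes a membrane protein that blocks entry of enveloped viruses, and Tap1, which encodes 1 chain of the transporter that carries peptides to class I molecules. The median change of the 39 genes was 0.13 on the log2 scale, against 0.0077 over all genes. The change was positive for 28 of the 39, against 52.1% of all genes. At an unadjusted p under 0.05 there were 10 higher and 1 lower, against 7.76% and 5.48% of all genes.

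With oligo 1 against sirEGFP, Ifitm3 alone rose among the 39 genes and 0 fell, against 1.04% of all genes called higher and 1.43% called lower. The median change was 0.093, against 0.022 over all genes. With oligo 2 against sirEGFP, Ifitm3 and Tap1 rose and 0 fell, against 1.52% called higher and 0.742% called lower, and the median change was 0.16 against -0.0077. Deviations from the group means correlated at 0.18 to 0.55 between same-numbered arrays of these 2 groups. Between differently numbered arrays of them the range of -0.44 to 0.28 overlapped this, so a pairing is not established. With the replicate number as a block 4 genes rose (Irf1 and Trim21 in addition) and 1 fell (Samd9l), where 2.73% of all genes were called higher and 1.14% lower. Against Mock, oligo 1 gave 1 rise (Parp9) and 0 falls, where 1.35% of all genes were called higher and 1.40% lower. Oligo 2 gave 4 rises (Ifitm3, Tap1, Dtx3l and Parp9) and 1 fall (Isg20) against Mock, where 2.93% were called higher and 1.32% lower. The median changes against Mock were 0.088 with oligo 1 and 0.064 with oligo 2, against 0.043 and 0.0082 over all genes.

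**Figure D1:**
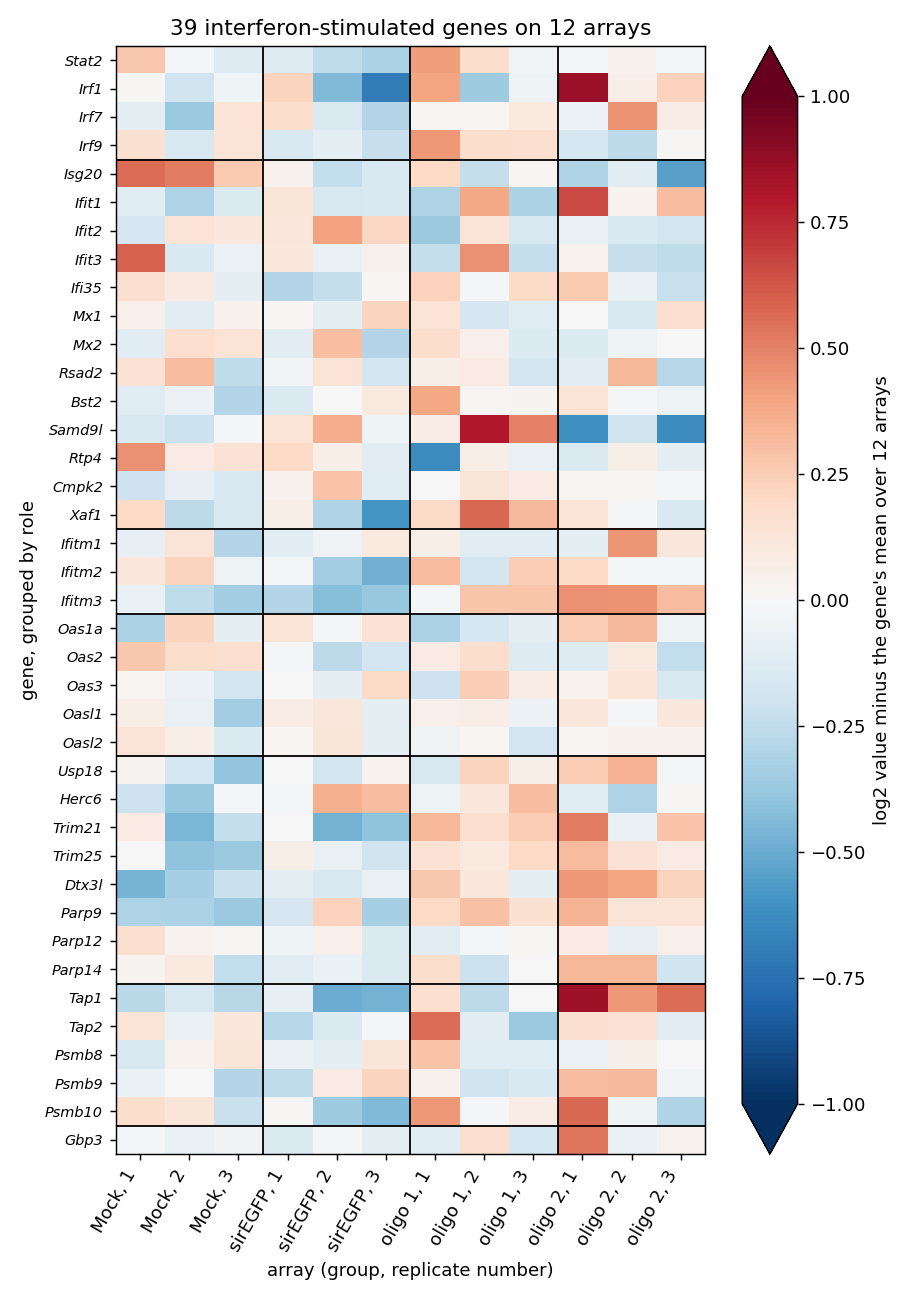
Log2 value of each of the 39 interferon-stimulated genes (rows, grouped by role) on each of the 12 arrays (columns), minus the gene's mean over the 12 arrays. Colours run from -1 (blue) to 1 (red), and the Ifitm3 and Tap1 rows are red on the oligo 2 arrays, while most rows show no colour block that follows the groups.

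The spread of the 39 genes over single arrays overlapped between groups. On the Mock arrays 22, 16 and 11 of the 39 genes stood above their own mean over the 12 arrays, and on the sirEGFP arrays 18, 12 and 12 did. On the oligo 1 arrays the numbers were 27, 25 and 19, and on the oligo 2 arrays 26, 22 and 19. The share of all genes above their own means also varied between arrays, at 46.8%, 53.6% and 36.1% in Mock, 43.9%, 53.9% and 52.3% under sirEGFP, 56.0%, 57.1% and 48.1% under oligo 1 and 48.4%, 54.7% and 44.0% under oligo 2. The part of these array-wide shifts in the counts of the 39 genes was not tested. The first Mock array thus held more genes above their means than the third array of either oligo. Separation without overlap was also counted for each comparison. All 6 knockdown arrays lay above all 6 control arrays for 2 of the 39 genes, Ifitm3 and Trim25, as for 1.43% of all genes. They lay below for 0 of the 39, against 0.692% of all genes.

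Against the 3 sirEGFP arrays, all 6 knockdown arrays were higher for Ifitm3, Stat2 and Trim25 (2.91% of all genes) and lower for 0 of the 39 (2.11%). The oligo 1 arrays alone were all above sirEGFP for 6 of the 39 genes (8.33% of all genes), namely Ifitm3, Irf9, Stat2, Trim21, Trim25 and Xaf1, and all below for Oas1a (7.18%). The oligo 2 arrays were all above sirEGFP for 5 genes (9.83%), namely Dtx3l, Ifitm3, Stat2, Tap1 and Trim25, and all below for Ifit2 and Samd9l (8.62%). Against Mock, 9 of the 39 genes were higher on every oligo 1 array (10.3%) and 3 were lower (6.17%), and 9 were higher (13.1%) and 3 lower (8.56%) on every oligo 2 array. Between the oligos, Ifitm3, Oas1a and Tap1 were higher (9.19%) and Irf9, Samd9l and Xaf1 lower (9.14%) on every oligo 2 array than on every oligo 1 array.

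**Figure D2:**
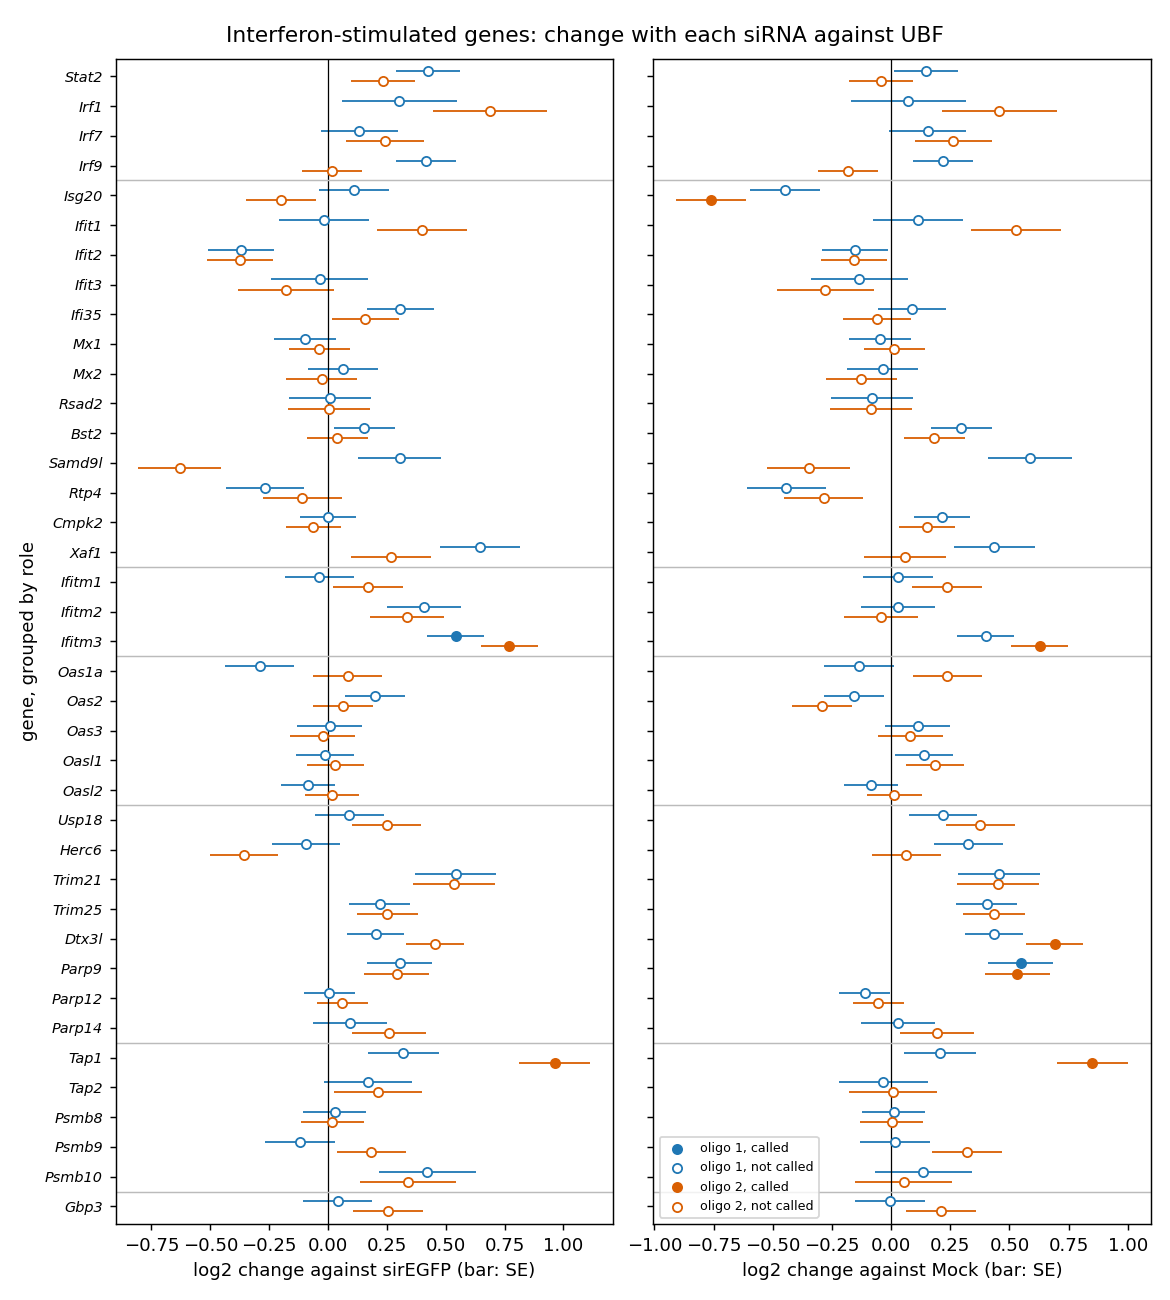
Log2 change (horizontal axis) of each of the 39 genes with oligo 1 (blue) and oligo 2 (orange), against sirEGFP on the left and against Mock on the right. Points are differences of means of 3 arrays, bars are limma's SE, and filled points are genes called at an adjusted p under 0.05. Tap1 with oligo 2 has the rightmost point in both panels, at 0.96 and 0.85.

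The 4 transcription factors of the list were all higher on average with the oligos than with sirEGFP, but none was called. With the mean of both oligos 1.21% of all genes were called higher. Stat2 and Irf9 encode subunits of the complex that binds ISREs, Irf1 encodes an activator induced by interferon gamma, and Irf7 encodes an activator of interferon genes. Their changes with the mean of both oligos ran from 0.19 to 0.50, with a median of 0.27. Against Mock the median was 0.15 with oligo 1 and 0.11 with oligo 2, and with sirEGFP against Mock it was -0.21.

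Stat2 stood at 6.63, 6.35 and 6.23 in Mock, at 6.24, 6.10 and 6.04 under sirEGFP, at 6.78, 6.54 and 6.34 under oligo 1 and at 6.34, 6.41 and 6.34 under oligo 2. The sirEGFP arrays were below all 6 knockdown arrays, whereas the Mock arrays overlapped both oligos. The change against sirEGFP was 0.42 ± 0.14 with oligo 1 (adjusted p = 0.142) and 0.23 ± 0.14 with oligo 2 (adjusted p = 0.535). Irf9 stood at 6.23, 5.92 and 6.21 in Mock, at 5.93, 5.99 and 5.85 under sirEGFP, at 6.51, 6.26 and 6.25 under oligo 1 and at 5.90, 5.82 and 6.09 under oligo 2. Only the oligo 1 arrays lay above the sirEGFP arrays of Irf9, and oligo 2 overlapped them. Its change was 0.42 ± 0.13 with oligo 1 (adjusted p = 0.115) and 0.02 ± 0.13 with oligo 2 (adjusted p = 0.977), and the difference of -0.40 between the oligos was not called (adjusted p = 0.108).

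Irf1 stood at 6.92, 6.71 and 6.87 in Mock, at 7.13, 6.47 and 6.21 under sirEGFP, at 7.31, 6.56 and 6.86 under oligo 1 and at 7.76, 6.98 and 7.14 under oligo 2. The first sirEGFP array fell within the range of the knockdown arrays, so the groups overlapped. With oligo 2 the change against sirEGFP was 0.69 ± 0.24 (adjusted p = 0.198). Without the first sirEGFP array it was 0.95 and was called (adjusted p = 0.0412), as was the change of 0.69 with the replicate number as a block (adjusted p = 0.0192). A second probe set for Irf1 changed less on average, by 0.14 against 0.50 in the mean of both oligos. Irf7 had changes of 0.13 with oligo 1 and 0.24 with oligo 2 against sirEGFP, each within 2 SE of 0.

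Among the antiviral effectors, 0 of the 13 measured genes were called against sirEGFP with either oligo, and their changes went both ways. These genes encode proteins that sense or degrade viral RNA, trap virions at the membrane or block replication. Against sirEGFP, 1.04% of all genes were called higher and 1.43% lower with oligo 1, and 1.52% and 0.742% with oligo 2. With the mean of both oligos, 6 of the 13 changes were positive (52.1% of all genes), the range ran from -0.37 to 0.46 and the median was -0.032. Mx1, Mx2 and Rsad2, classical markers of an interferon response, had changes within 0.10 of 0 with both oligos against sirEGFP. Values of the 13 genes went down to 2.59, under the array medians of 5.38 to 5.54. Whether Mx1, Mx2 and Rsad2 stood above background cannot be told from the deposited values.

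Isg20, which encodes an RNA exonuclease, was the single effector called against a control. It stood at 7.52, 7.48 and 7.22 in Mock, at 7.01, 6.72 and 6.81 under sirEGFP, at 7.17, 6.72 and 6.98 under oligo 1 and at 6.67, 6.85 and 6.43 under oligo 2. All 9 arrays that received an siRNA lay below the 3 Mock arrays, and the sirEGFP arrays overlapped those of both oligos. Isg20 fell by 0.76 ± 0.15 with oligo 2 against Mock (adjusted p = 0.00978), and its change with sirEGFP against Mock was -0.56 ± 0.15 (adjusted p = 0.668). With oligo 2 against sirEGFP the change was -0.20 (adjusted p = 0.666). Its call against Mock was lost without Mock 1 (adjusted p = 0.0583) or oligo 2 array 3 (adjusted p = 0.0589).

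Samd9l, which encodes an interferon-induced restriction factor of poxviruses, differed between the oligos. It stood at 7.64, 7.58 and 7.77 in Mock, at 7.93, 8.15 and 7.75 under sirEGFP, at 7.87, 8.59 and 8.29 under oligo 1 and at 7.18, 7.60 and 7.17 under oligo 2. The oligo 2 arrays lay below all oligo 1 and all sirEGFP arrays, while oligo 1 overlapped sirEGFP. The change against sirEGFP was 0.30 ± 0.18 with oligo 1 (adjusted p = 0.516) and -0.63 ± 0.18 with oligo 2 (adjusted p = 0.0849). The oligo 2 change was called without oligo 1 array 1 (adjusted p = 0.0333) and without oligo 1 array 2 (adjusted p = 0.0396). It was also called without the 3 outlying arrays (-0.64, adjusted p = 0.0407) and with the replicate number as a block (adjusted p = 0.0296).

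Xaf1, which encodes an interferon-induced promoter of apoptosis, stood at 6.95, 6.48 and 6.60 in Mock, at 6.81, 6.45 and 6.15 under sirEGFP, at 6.94, 7.32 and 7.07 under oligo 1 and at 6.88, 6.73 and 6.60 under oligo 2. Oligo 1 lay above sirEGFP on every array, and oligo 2 overlapped both controls. With oligo 1 the change of 0.65 ± 0.17 against sirEGFP was not called (adjusted p = 0.065), and it was called at 0.82 without the first sirEGFP array (adjusted p = 0.0196). Ifit2, whose product binds RNA and represses translation, stood at 9.05, 9.35 and 9.32 in Mock, at 9.33, 9.62 and 9.42 under sirEGFP, at 8.84, 9.35 and 9.06 under oligo 1 and at 9.15, 9.07 and 9.03 under oligo 2. Its sirEGFP arrays were above all oligo 2 arrays and overlapped oligo 1, and Mock overlapped both oligos. The change was -0.37 ± 0.14 with each oligo against sirEGFP (adjusted p = 0.237 with oligo 1 and 0.239 with oligo 2). Without oligo 1 array 2 the mean change of Ifit2 was -0.44 and was called (adjusted p = 0.0448). Ifi35 had a mean change of 0.23 (adjusted p = 0.465).

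Of the 3 IFITM genes, which encode small membrane proteins that hinder fusion of viral and cellular membranes, Ifitm3 rose with both oligos. It stood at 11.36, 11.17 and 11.08 in Mock, at 11.14, 11.003 and 11.05 under sirEGFP, at 11.40, 11.70 and 11.71 under oligo 1 and at 11.88, 11.88 and 11.73 under oligo 2. Every knockdown array was above every control array, although the lowest oligo 1 array was close to the highest Mock array. Against sirEGFP Ifitm3 rose 1.46-fold with oligo 1, a change of 0.54 ± 0.12 (adjusted p = 0.029). With oligo 2 it rose 1.71-fold, a change of 0.77 ± 0.12 (adjusted p = 0.00343). Against Mock it rose by 0.63 ± 0.12 with oligo 2 (adjusted p = 0.0095), and the change of 0.40 ± 0.12 with oligo 1 was not called (adjusted p = 0.112).

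The call of Ifitm3 with oligo 2 against sirEGFP held in all 22 alternative settings run. With the mean of both oligos its call held in every setting that kept more than 1 oligo 1 array. The oligo 1 call against sirEGFP was lost without sirEGFP 2 (adjusted p = 0.136), sirEGFP 3 (0.107), oligo 1 array 2 (0.0559) or oligo 1 array 3 (0.132), at changes of 0.49 to 0.53. It was also lost in a fit of only the groups compared (adjusted p = 0.124). Without the 3 outlying arrays, with 1 oligo 1 array left, the change was 0.68. Ifitm2 had a mean change of 0.37 ± 0.13 against sirEGFP (adjusted p = 0.213), but was within 0.05 of 0 with both oligos against Mock. Its sirEGFP arrays stood at 9.83, 9.50 and 9.36, and its Mock arrays at 9.96, 10.07 and 9.80. The other 2 probe sets of Ifitm2 had mean changes of 0.33 and 0.50. Ifitm1 had a mean change of 0.07 (adjusted p = 0.911). IFITM genes are near-identical in part of their sequence, so the division of signal among them is uncertain.

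**Figure D3:**
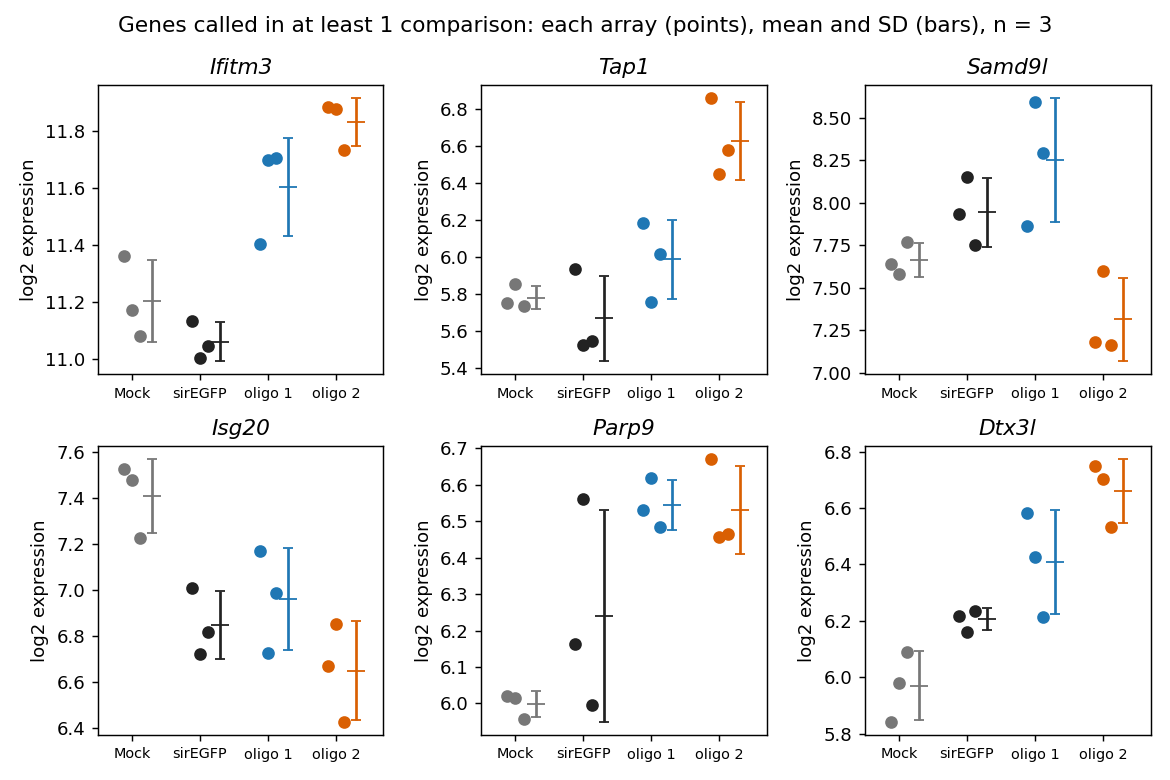
Log2 expression (vertical axis, not starting at 0) of the 6 interferon-stimulated genes called in at least 1 comparison, on each array (points) with mean and SD (bars, n = 3) of each group. Ifitm3 is above the controls with both oligos, Tap1 is highest with oligo 2, Samd9l is lowest with oligo 2, and Isg20 is highest in Mock.

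None of the 5 OAS genes was called in any comparison. Per comparison, up to 2.93% of all genes were called higher and up to 1.43% lower. The 5 OAS genes encode synthetases that activate RNase L and related proteins. With the mean of both oligos against sirEGFP their changes ran from -0.10 to 0.13, with a median of -0.0084, and 0 of 5 had an unadjusted p under 0.05. Oas1a stood at 4.60, 5.14 and 4.82 in Mock, at 5.05, 4.90 and 5.06 under sirEGFP, at 4.60, 4.74 and 4.81 under oligo 1 and at 5.17, 5.24 and 4.86 under oligo 2. Oligo 1 lay below sirEGFP and oligo 2 on every array, and the Mock arrays spanned nearly the whole range. Its change was -0.29 ± 0.15 with oligo 1 (adjusted p = 0.423) and 0.08 ± 0.15 with oligo 2 (adjusted p = 0.894). Oas2 was lower with sirEGFP than in Mock on every array, at a change of -0.36 ± 0.13 that was not called (adjusted p = 0.727). Oasl2 had a mean change of -0.03 (adjusted p = 0.948).

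The genes for ISG15, ubiquitin and ADP-ribose enzymes were mostly higher with the oligos, and those called were called against Mock. Of 8 measured genes, 7 had positive changes in the mean of both oligos against sirEGFP, against 52.1% of all genes. The median was 0.21, against 0.0077 over all genes, and 0 were called (1.21% of all genes higher and 0.722% lower). Against Mock 1 of 8 rose with oligo 1 and 2 of 8 rose with oligo 2, where 1.35% and 2.93% of all genes were called higher. The medians were 0.36 and 0.41, against 0.043 and 0.0082 over all genes. With sirEGFP against Mock the median of the same genes was 0.16, against 0.018 over all genes, with 0 called.

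Dtx3l encodes a ubiquitin ligase that works in a complex with the ADP-ribosyltransferase encoded by Parp9. Dtx3l stood at 5.84, 5.98 and 6.09 in Mock, at 6.22, 6.16 and 6.24 under sirEGFP, at 6.58, 6.43 and 6.21 under oligo 1 and at 6.75, 6.70 and 6.53 under oligo 2. Mock was lowest on every array, oligo 2 was above both controls, and oligo 1 overlapped sirEGFP. With oligo 2 Dtx3l rose by 0.69 ± 0.12 against Mock (adjusted p = 0.00561), and its change against sirEGFP was 0.46 ± 0.12 (adjusted p = 0.0722). Parp9 stood at 6.02, 6.01 and 5.96 in Mock, at 6.16, 6.56 and 5.996 under sirEGFP, at 6.53, 6.62 and 6.48 under oligo 1 and at 6.67, 6.46 and 6.47 under oligo 2. Both oligos lay above Mock on every array, and the second sirEGFP array fell within the range of the knockdown arrays.

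Parp9 rose against Mock with both oligos, at changes of 0.55 ± 0.14 for oligo 1 (adjusted p = 0.0462) and 0.53 ± 0.14 for oligo 2 (adjusted p = 0.0395), and neither change against sirEGFP was called (0.30 and 0.29). The oligo 1 call was lost without any 1 of the Mock, oligo 1 or oligo 2 arrays, and the oligo 2 call was lost without any 1 of the Mock or oligo 2 arrays or without oligo 1 array 3 (adjusted p from 0.0538 to 0.15). The changes in those settings ran from 0.46 to 0.58. The oligo 1 call was also lost after quantile normalization (0.55, adjusted p = 0.0535) or median centring (0.065). An intensity trend (0.0576) and a fit of only the groups compared (0.0557) lost it too. Without the 3 outlying arrays the change with oligo 1 was 0.49.

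Trim21, which encodes a cytosolic antibody receptor and ubiquitin ligase, stood at 7.15, 6.61 and 6.83 in Mock, at 7.07, 6.59 and 6.67 under sirEGFP, at 7.40, 7.24 and 7.32 under oligo 1 and at 7.58, 7.004 and 7.35 under oligo 2. Oligo 1 was above every control array, and 1 oligo 2 array fell within the range of the controls. The change against sirEGFP was 0.54 ± 0.17 with each oligo (adjusted p = 0.14 with oligo 1 and 0.146 with oligo 2), and with the replicate number as a block the oligo 2 change was called (adjusted p = 0.0175). In the mean of both it was 0.54 ± 0.15 (adjusted p = 0.0905), and without the first sirEGFP array it was 0.69 and was called (adjusted p = 0.0382). Trim25, named here after its values were seen, encodes a ubiquitin ligase that activates the sensor RIG-I. It stood at 7.61, 7.20 and 7.23 in Mock, at 7.66, 7.53 and 7.41 under sirEGFP, at 7.75, 7.70 and 7.80 under oligo 1 and at 7.92, 7.74 and 7.69 under oligo 2. The knockdown and control arrays did not overlap, although the lowest of the former was close to the highest of the latter. The mean change of Trim25 against sirEGFP was 0.24 ± 0.11 (adjusted p = 0.389).

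Herc6, which encodes the mouse ligase for ISG15, had the smallest p of these genes with sirEGFP against Mock, at 0.42 ± 0.14 (adjusted p = 0.727). It stood at 7.32, 7.16 and 7.51 in Mock and at 7.52, 7.89 and 7.84 with sirEGFP, without overlap, and the arrays of both oligos overlapped both controls. Usp18, Parp12 and Parp14 had mean changes within 0.20 of 0 against sirEGFP.

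Of the 5 antigen processing genes, which encode the peptide transporter and the inducible subunits of the immunoproteasome, Tap1 rose with oligo 2. Tap1 stood at 5.75, 5.85 and 5.74 in Mock, at 5.93, 5.52 and 5.54 under sirEGFP, at 6.19, 5.76 and 6.01 under oligo 1 and at 6.86, 6.45 and 6.58 under oligo 2. The oligo 2 arrays were above all other arrays, and oligo 1 overlapped both controls. With oligo 2 Tap1 rose by 0.96 ± 0.15 against sirEGFP (adjusted p = 0.00314), which is 1.95-fold, and by 0.85 ± 0.15 against Mock (adjusted p = 0.00557). With oligo 1 the changes were 0.32 ± 0.15 (adjusted p = 0.377) and 0.21 ± 0.15 (adjusted p = 0.659). In the mean of both oligos the rise of 0.64 ± 0.13 (adjusted p = 0.0209) was lost without sirEGFP 2 (0.57, adjusted p = 0.162) or sirEGFP 3 (0.58, adjusted p = 0.139), or in a fit of only the groups compared (adjusted p = 0.0525). The oligo 2 calls against sirEGFP and Mock held in every alternative setting run.

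Tap1 and Psmb9 lie head to head on mouse chromosome 17, and their promoter windows share 275 bases. The stretch between their starts is printed because it holds the upstream sequence of both genes. It is written on the plus strand, toward Tap1, and in lower case throughout since it holds 0 ISRE cores and 0 GAS cores in the letters searched.
Tap1 and Psmb9, chr17:34187331-34187555: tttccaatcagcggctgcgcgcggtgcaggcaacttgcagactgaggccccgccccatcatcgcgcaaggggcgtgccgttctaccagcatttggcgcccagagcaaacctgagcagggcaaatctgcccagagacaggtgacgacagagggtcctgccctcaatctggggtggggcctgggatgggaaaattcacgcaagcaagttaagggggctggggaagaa
Psmb9 stood at 6.40, 6.48 and 6.18 in Mock, at 6.22, 6.56 and 6.70 under sirEGFP, at 6.51, 6.27 and 6.32 under oligo 1 and at 6.78, 6.79 and 6.45 under oligo 2. Its groups overlapped, except that 2 of the oligo 2 arrays were the highest of the 12. With oligo 2 the change of Psmb9 against sirEGFP was 0.18 ± 0.15 (adjusted p = 0.694), with a 95% interval of -0.13 to 0.50, beside 0.64 to 1.28 for Tap1. The difference between these genes was not tested.

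The other antigen processing genes were not called. Psmb10 stood at 6.9998, 6.63 and 6.55 under sirEGFP, at 7.42, 6.96 and 7.06 under oligo 1 and at 7.56, 6.94 and 6.69 under oligo 2, with overlap between the groups and a mean change of 0.38 ± 0.18 (adjusted p = 0.373). Tap2, which encodes the partner chain of Tap1, had a mean change of 0.19 (adjusted p = 0.72), and Psmb8 one of 0.02. Gbp3, the single guanylate-binding protein gene measured, had a mean change of 0.15 (adjusted p = 0.727).

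Genes called were found both with and without an ISRE core in their windows. Among the 11 measured genes with an ISRE core, 1 (Ifitm3) was called with the mean of both oligos against sirEGFP, and the median change was 0.15. Of all genes 1.21% were called higher in that comparison. Among the 20 without one, 1 (Tap1) was called, and the median change was 0.050. With oligo 1 the order of the medians was the opposite, at 0.040 with and 0.12 without an ISRE core.

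The oligos were then compared with each other on the same 39 genes. Tap1 was higher and Samd9l lower with oligo 2 than with oligo 1, which makes 1 of 39 in each direction, against 2.30% of all genes called higher and 1.37% called lower. Tap1 differed by 0.64 ± 0.15 (adjusted p = 0.0261) and Samd9l by -0.93 ± 0.18 (adjusted p = 0.0079). The median difference of the 39 genes was -0.0044, against -0.030 over all genes. For Ifitm3 the difference was 0.23, with a 95% interval of -0.03 to 0.49, for Trim21 -0.01, with an interval of -0.38 to 0.36, and for Parp9 -0.01, with an interval of -0.31 to 0.28.

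The Tap1 difference was lost without oligo 1 array 2 (adjusted p = 0.0789), oligo 1 array 3 (0.0821), oligo 2 array 1 (0.126) or oligo 2 array 3 (0.0775), or in a fit of only the groups compared (adjusted p = 0.0745). Without the 3 outlying arrays it was 0.62. The Samd9l difference was lost without oligo 2 array 3 (-0.86, adjusted p = 0.05). Of the 11 macrophage or leukocyte markers, 2 were called lower and 0 higher with oligo 2 than with oligo 1 (1.37% and 2.30% of all genes). They were Lyz2, by -1.29 (adjusted p = 0.00145), and Csf1r, by -0.80 (adjusted p = 0.00807). The difference was positive for 3 of the 11, at up to 0.58, and negative for 8. Against the controls Csf1r was higher with oligo 1, by 0.83 against sirEGFP (adjusted p = 0.00874) and by 0.83 against Mock (adjusted p = 0.0072), and Lyz2 was lower with oligo 2 against Mock (-0.75, adjusted p = 0.0368). Of all genes 1.04%, 1.35% and 1.32% were called in those comparisons and directions. With oligo 2 against sirEGFP 0 of the 11 were called, at changes from -0.61 to 1.00. The mean level of that list ran from 5.07 to 5.19 with oligo 1, from 4.89 to 5.08 with oligo 2, from 4.92 to 5.07 in Mock and from 4.93 to 5.04 with sirEGFP, with no value under 3.06. Of the 10 fibroblast markers, Pdgfra (0.81) and Pdgfrb (1.33) were higher and Thy1 (-0.67) was lower with oligo 2 than with oligo 1 (2.30% and 1.37% of all genes). The list's mean level ran from 9.24 to 9.74 with oligo 1 and from 9.46 to 9.75 with oligo 2. With oligo 2 Pdgfra was also higher against sirEGFP (0.91, adjusted p = 0.0119) and Mock (0.90, adjusted p = 0.00932), and Pdgfrb against sirEGFP (1.75, adjusted p = 0.0126). Of all genes 1.52% were called higher with oligo 2 against sirEGFP and 2.93% against Mock. The part of these markers in the Tap1, Samd9l and Ifitm3 results was not tested, and fewer cells of a type cannot be told apart from less RNA per cell in such samples.

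Delivery of sirEGFP itself was compared with Mock to ask how the genes stood after an siRNA that does not target UBF. Of the 39 genes 0 were called, as were 0 of all 19938 genes. At an unadjusted p under 0.05, 1 of the 39 was higher (Herc6) and 3 were lower, against 3.84% and 2.42% of all genes. The median change was -0.044, against 0.018 over all genes, and 17 of the 39 changes were positive. Isg20 and Oas2 were lower and Herc6 and Dtx3l higher on every sirEGFP array than on every Mock array, where 3.87% of all genes were lower and 6.86% higher in that way.

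The machinery that makes and answers interferon was followed through 48 of 54 further listed genes. The others, Ifna1, Ifnl3, H2-K1 and H2-D1 among them, were not analysed here. With the mean of both oligos against sirEGFP 4 of the 48 rose and 0 fell (1.21% and 0.722% of all genes), with a median change of 0.11. With oligo 1 against sirEGFP 2 rose and 1 fell (1.04% and 1.43%), and with oligo 2 against sirEGFP 5 rose and 0 fell (1.52% and 0.742%). Against Mock 4 rose with oligo 1 (1.35% of all genes) and 9 with oligo 2 (2.93%), and 0 fell with either (1.40% and 1.32%). Between the oligos 4 were higher and 0 lower with oligo 2 (2.30% and 1.37%). Of these 29 calls 14 were lost in a fit of only the groups compared (adjusted p from 0.0522 to 0.147). After median centring 5 were lost (0.053 to 0.0839), and with an intensity trend 4 were (0.0536 to 0.0716).

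None of the 8 measured ligand genes was called in any comparison, beside at most 2.93% of all genes called higher and 1.43% lower. Ifnb1, which encodes interferon beta, stood between 2.88 and 3.29 on the 12 arrays, and its mean change against sirEGFP was 0.03 (95% interval -0.20 to 0.26). Ifnab and Ifnl2, the ligand genes of lowest p for the mean of both oligos, had changes of 0.24 (adjusted p = 0.66) and -0.14 (adjusted p = 0.748). Probe sets that carry several interferon alpha symbols were left out, and those genes resemble each other closely.

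Of the 6 receptor genes 3 rose with oligo 2 against Mock and 0 fell (2.93% and 1.32% of all genes). Ifnar1 rose by 0.48 (adjusted p = 0.0174) and Ifnar2 by 0.64 (adjusted p = 0.0129), which encode both chains of the receptor for type I interferon, and Ifngr2, of the interferon gamma receptor, rose by 0.73 (adjusted p = 0.0263). None of these was called against sirEGFP, at changes of 0.35, 0.42 and 0.64. The Ifngr2 change against sirEGFP (adjusted p = 0.0693) was called in 7 of 22 alternative settings, among them without oligo 1 array 1 (adjusted p = 0.00904) or 2 (0.0466), without the 3 outlying arrays (0.0201) and with the replicate number as a block (0.0239). The calls were lost without single Mock or oligo 2 arrays, that of Ifnar1 without Mock 1, Mock 2 or oligo 2 array 2 or 3 (adjusted p from 0.0648 to 0.0853), that of Ifnar2 without Mock 1 or oligo 2 array 1 or 2 (0.0553 to 0.06) and that of Ifngr2 without any 1 of these 6 arrays (0.0546 to 0.109). Il10rb, the receptor chain shared by lambda interferons, rose with oligo 1, by 0.55 against sirEGFP (adjusted p = 0.0366) and by 0.51 against Mock (adjusted p = 0.0482), while its change with oligo 2 was 0.09 and 0.05. The difference of -0.46 between the oligos was not called (adjusted p = 0.0676) and was called with the replicate number as a block (adjusted p = 0.0415). The Il10rb call against sirEGFP was lost without Mock 1, sirEGFP 2 or 3, oligo 1 array 1 or 3, or oligo 2 array 3 (adjusted p from 0.0505 to 0.153), and that against Mock without any 1 array other than sirEGFP 1 (0.0551 to 0.188). Without the 3 outlying arrays, with 1 oligo 1 array left, the changes against sirEGFP and Mock were 0.43 and 0.34.

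Stat3, which encodes a transcription factor of cytokine signalling, rose in 4 of the 5 comparisons of an oligo or of their mean with a control, and its change with oligo 1 against sirEGFP was not called (0.64, adjusted p = 0.0778), although it was in 5 of 22 alternative settings, among them without sirEGFP 1 (0.78, adjusted p = 0.033) or oligo 1 array 2 (0.77, adjusted p = 0.0261). It stood at 6.80, 6.85 and 6.92 in Mock, at 7.24, 6.87 and 6.75 under sirEGFP, at 7.88, 7.31 and 7.57 under oligo 1 and at 8.14, 7.79 and 7.55 under oligo 2. Every knockdown array lay above every control array. Stat3 rose by 0.75 ± 0.15 in the mean of both oligos against sirEGFP (adjusted p = 0.02), and this call was lost without sirEGFP 2 (adjusted p = 0.138) or sirEGFP 3 (0.142). Its call with oligo 2 against sirEGFP was lost without sirEGFP 2 or 3 or oligo 2 array 1 or 2 (0.0527 to 0.0907), and that with oligo 1 against Mock without any 1 Mock array, sirEGFP 2, oligo 1 array 1 or 3, or oligo 2 array 2 (0.0549 to 0.137). Without the 3 outlying arrays the change of Stat3 with oligo 1 against Mock was 0.71. Irf2, which encodes a repressor that competes with IRF1, rose with oligo 2, by 0.89 against sirEGFP (adjusted p = 0.00594) and by 0.84 against Mock (adjusted p = 0.00678), and was 0.60 higher than with oligo 1 (adjusted p = 0.0443), a difference lost without any 1 of the oligo 2 or Mock arrays, oligo 1 array 2 or 3, or sirEGFP 2 (adjusted p from 0.0548 to 0.172). Without the 3 outlying arrays that difference was 0.63. With the mean of both oligos Irf2 rose by 0.59 against sirEGFP (adjusted p = 0.0371). That call was lost without Mock 1 or 2 or sirEGFP 2 or 3 (adjusted p from 0.0504 to 0.228). It was also lost without oligo 1 array 1 or 3 or oligo 2 array 1 or 3 (0.0541 to 0.0848). Median centring (0.053) and a fit of only the groups compared (0.077) lost it too. Jak1 had a mean change of 0.19 (adjusted p = 0.546), and Irf2bp2 of 0.20 (adjusted p = 0.648).

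Of the 7 inhibitors of the pathway, 1 was called higher with oligo 2 against Mock (2.93% of all genes). Between the oligos 1 was higher with oligo 2 (2.30%), and 0 were called in the other comparisons. In those, at most 1.52% of all genes were called higher and 1.43% lower. Pias1, a ligase that restrains STATs, rose by 0.50 with oligo 2 against Mock (adjusted p = 0.0335), and this call was lost without any 1 of the oligo 2 arrays (0.0867 to 0.116), oligo 1 array 3 (0.0504), Mock 1 (0.104) or Mock 2 (0.151). Ptpn2, a phosphatase of JAK kinases, was higher by 0.54 with oligo 2 than with oligo 1 (adjusted p = 0.0221), and the mean of its probe sets was not called (adjusted p = 0.594), nor was the difference without oligo 1 array 1 or 3 or oligo 2 array 2 or 3 (0.0576 to 0.104). Without the 3 outlying arrays that difference was 0.47. Pias4 and Socs3 had mean changes of 0.35 (adjusted p = 0.353) and 0.30 (adjusted p = 0.317).

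Among the sensors, Ddx58, which encodes the RNA sensor RIG-I, was called in the 5 comparisons of an oligo or of their mean with a control. Its changes there ran from 0.50 to 0.75, and all 6 knockdown arrays (7.28 to 7.70) lay above all 6 control arrays (6.64 to 6.96). The oligo 1 call against sirEGFP was lost without any 1 sirEGFP array or oligo 1 array 1 or 3 (adjusted p from 0.0531 to 0.116), and that against Mock without any 1 Mock or oligo 1 array, sirEGFP 2 or 3, or oligo 2 array 3 (0.0547 to 0.172). Without the 3 outlying arrays, with 1 oligo 1 array left, the oligo 1 changes against sirEGFP and Mock were 0.48 and 0.44. The RNA-activated kinase gene Eif2ak2 rose by 0.67 with oligo 1 against Mock (adjusted p = 0.0144), and was not called without Mock 1 (0.0537) or Mock 2 (0.0779). Without the 3 outlying arrays its change was 0.51. Cgas, the DNA sensor, fell by 0.59 with oligo 1 against sirEGFP (adjusted p = 0.0131) and was higher by 0.57 with oligo 2 than with oligo 1 (adjusted p = 0.0111). The fall was lost without sirEGFP 3 (adjusted p = 0.0675) or oligo 1 array 1 (0.0587), and the difference without oligo 2 array 3 (0.0578). Without the 3 outlying arrays the change of Cgas with oligo 1 was -0.50 and the difference between the oligos 0.49. Its adaptor Sting1 rose by 1.39 with oligo 2 against Mock (adjusted p = 0.0115), at 5.55, 5.76 and 5.32 in Mock and 7.38, 6.54 and 6.87 with oligo 2, without overlap. That call was lost without Mock 1 (adjusted p = 0.053) or oligo 2 array 1 (0.0552). Against sirEGFP the Sting1 change of 1.09 was not called (adjusted p = 0.0551). It was called in 7 of 22 alternative settings, among them without sirEGFP 1 (1.28, adjusted p = 0.0347), without oligo 1 array 1 (0.0225) or 2 (0.0257), without the 3 outlying arrays (0.0085) and with the replicate number as a block (0.0116).

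In class I presentation, Erap1, which encodes the peptidase that trims peptides in the endoplasmic reticulum, rose with oligo 2 by 1.25 ± 0.17 against Mock (adjusted p = 0.000992) and by 0.72 ± 0.17 against sirEGFP (adjusted p = 0.0364). It stood at 6.40, 6.03 and 6.67 in Mock, at 6.72, 6.98 and 6.99 under sirEGFP, at 6.67, 7.08 and 7.05 under oligo 1 and at 7.48, 7.81 and 7.56 under oligo 2. The oligo 2 arrays were above all others, and sirEGFP was above Mock. Psme1, which encodes a subunit of the proteasome activator, rose by 0.56 ± 0.13 in the mean of both oligos against sirEGFP (adjusted p = 0.0374). B2m, the light chain of class I molecules, had a mean change of 0.03. The Erap1 call against sirEGFP was lost without any 1 sirEGFP or oligo 2 array, Mock 1 or oligo 1 array 3 (adjusted p from 0.0557 to 0.148), without the 3 outlying arrays (0.0511) or after quantile normalization (0.0618). Erap1 was also higher with oligo 2 than with oligo 1, by 0.68 (adjusted p = 0.0347). That difference was lost without any 1 oligo 2 array, oligo 1 array 1 or 3, or Mock 1 (0.0526 to 0.15), and it was 0.57 without the 3 outlying arrays. The Psme1 call was lost without Mock 1, sirEGFP 2 or 3, oligo 1 array 1 or 3, or oligo 2 array 1 or 2 (0.0504 to 0.229). Without the 3 outlying arrays its mean change was 0.62. With oligo 2 against sirEGFP Psme1 rose by 0.61 (adjusted p = 0.0432). That call was lost without Mock 1 or 2, sirEGFP 2 or 3, oligo 1 array 3 or any 1 oligo 2 array (0.0531 to 0.209). A fit of only the groups compared lost it too (0.0649).

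**Figure D4:**
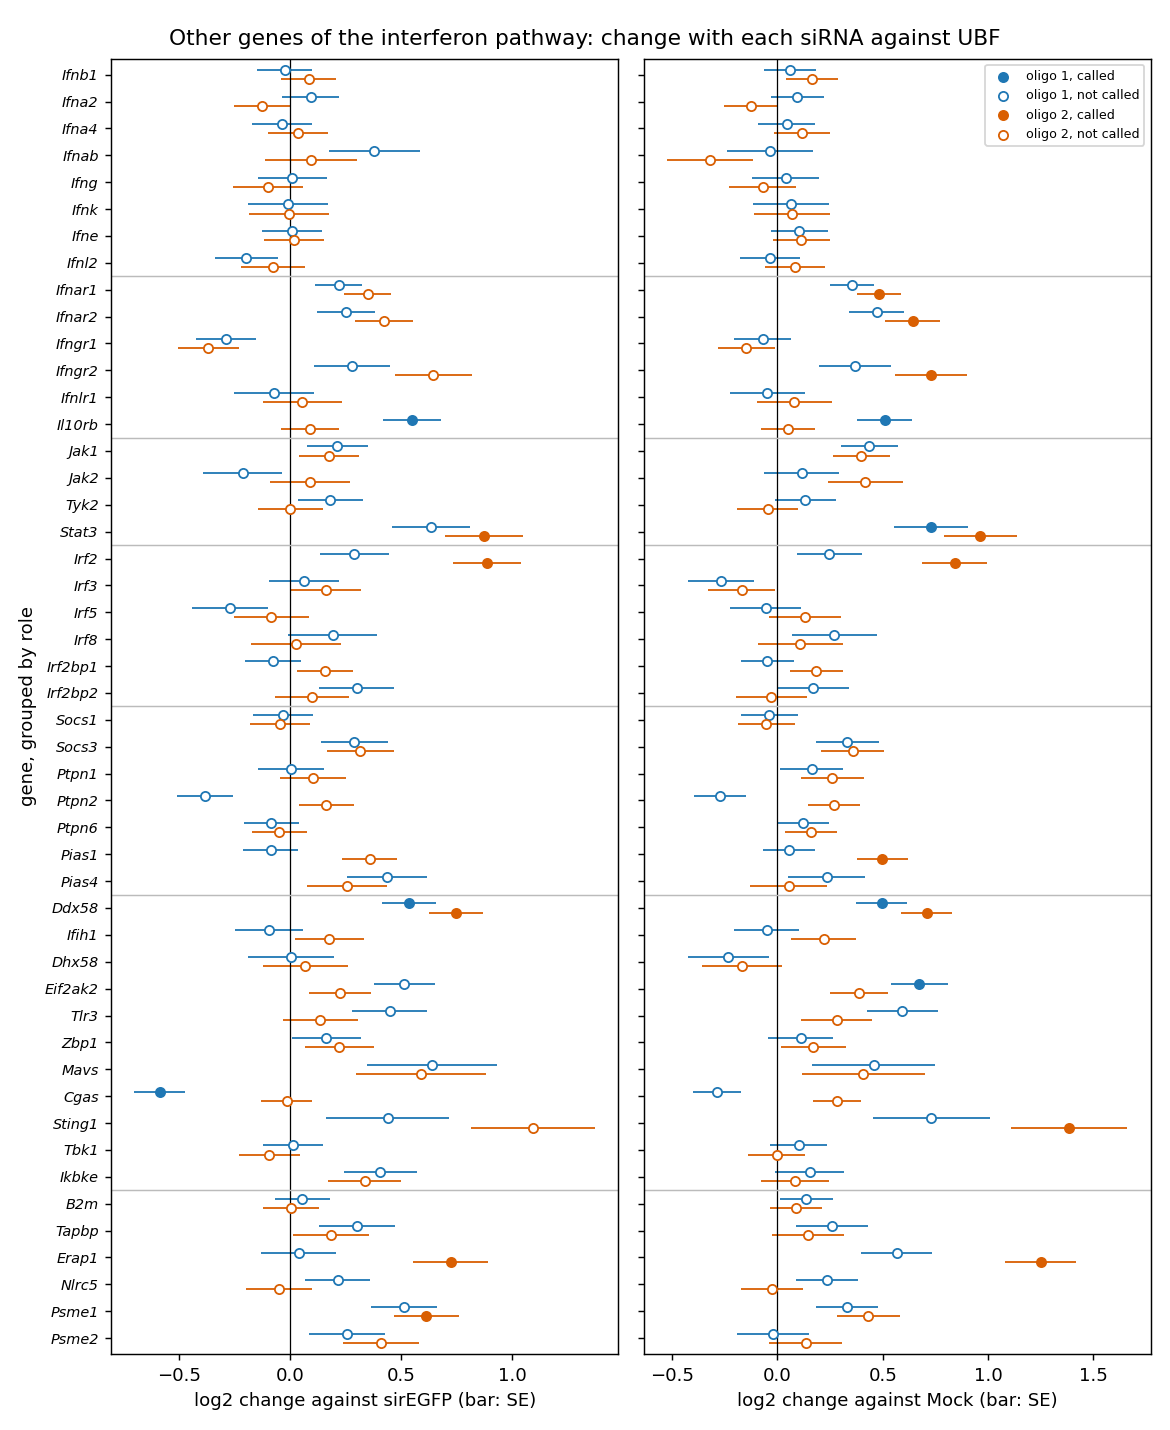
Log2 change (horizontal axis) of the 48 further interferon pathway genes, grouped as ligands, receptors, kinases and STATs, other IRFs, inhibitors, sensors and adaptors, and class I presentation, with oligo 1 (blue) and oligo 2 (orange). The left panel is against sirEGFP and the right panel against Mock, bars are limma's SE, and filled points are genes called at an adjusted p under 0.05, of which Sting1 with oligo 2 against Mock has the highest change (1.39).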

How the data were processed

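The 12 Affymetrix arrays were each loaded with 2.5 ug of labelled cDNA made from 100 ng of total RNA, per the labels' protocols. The authors deposited log2 values for 35512 probe sets, a scale read from the values. No source used here gives the steps of summary, background correction or normalization, and the submitters' processing notes name limma without a version. Precision is limited by the number of arrays.

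The platform annotation gave 21789 probe sets a single symbol, of which 21698 matched RefSeq by Entrez identifier. For 999 genes with more than 1 such probe set, that with the highest mean was kept, and 19938 genes resulted. A limma 3.58.1 model (R 4.3.3, lmFit then eBayes, two-sided) took all 12 arrays with a coefficient per group and left 8 residual degrees of freedom. Benjamini-Hochberg adjustment covered all genes. The script was tested on simulated data. A change is the difference between group means of log2 values, with its moderated standard error. Named are Ubtf, each member called in any of 7 comparisons and, within each role, the 3 of smallest p for the mean of both oligos against sirEGFP and the 1 of smallest p for each other comparison. Other pathway genes are named where called, with up to 2 per role of smallest p. Genes named beside these (Irf7, Mx1, Mx2, Rsad2, Usp18, Parp12, Parp14, Psmb8, Psmb9, Trim25, Ifnb1, B2m) were added after their values were seen. Of 6 pairs of groups, 2 had every correlation between same-numbered arrays, in deviations from the group means, over 0.1: oligo 2 with sirEGFP (0.18 to 0.55) and oligo 2 with oligo 1 (0.12 to 0.39). The labels do not say what a number marks, so in those comparisons the value with the replicate number as a block is given where it changes a call. The members and lists were chosen with earlier results of these data known. Alternatives comprised median centring, quantile normalization, the mean of a gene's probe sets, a filter on dim genes, a replicate block, fits of the compared groups alone, an intensity trend, array weights, Mock and sirEGFP pooled as control, and leaving out arrays.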

Additional observations from a re-analysis of the deposited data

Results flagged for a closer look

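Some genes differed between the oligos in limma's test of the difference itself, oligo 2 minus oligo 1, over 3 arrays each, with Benjamini-Hochberg adjustment over all genes. Among the interferon-stimulated genes, Samd9l differed by -0.93 on the log2 scale (adjusted p = 0.0079) and Tap1 by 0.64 (adjusted p = 0.0261). Among the other pathway genes, Cgas differed by 0.57 (adjusted p = 0.0111), Ptpn2 by 0.54 (adjusted p = 0.0221), Erap1 by 0.68 (adjusted p = 0.0347) and Irf2 by 0.60 (adjusted p = 0.0443). The differences of Samd9l and Cgas were lost without oligo 2 array 3. That of Tap1 was lost without oligo 1 array 2 or 3 or oligo 2 array 1 or 3, and that of Ptpn2 without oligo 1 array 1 or 3 or oligo 2 array 2 or 3. Those of Erap1 and Irf2 were lost without any 1 oligo 2 array, oligo 1 array 3 or Mock 1, among others. In a fit of only the groups compared all but that of Samd9l were lost. Ptpn2 was not called with the mean of its probe sets (0.20, adjusted p = 0.594). Without the 3 arrays that stand apart 1 oligo 1 array was left, and the differences of Tap1, Cgas, Ptpn2, Erap1 and Irf2 were 0.62, 0.49, 0.47, 0.57 and 0.63.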

How the results depend on the processing

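Across 22 alternative settings no called value changed sign, but counts of called members moved. Against sirEGFP, the count for the mean of both oligos (2) became 1 with only the groups compared and 4 with a replicate block. It became 5 with Mock and sirEGFP pooled as control and 7 with array weights. For oligo 1 (1) the count became 0, 3 and 8 with only the groups compared, the block and weights. For oligo 2 (2 beside 451) it became 5 beside 773 with the block, 7 beside 1180 with weights and 4 beside 979 with the pooled control. Against Mock, the oligo 1 count (1 beside 549) was 0 after median centring (beside 511), quantile normalization (603), an intensity trend (507) or a fit of only the groups compared (276). It was 3 beside 838 with the block and 9 beside 2695 with weights. Between the oligos (2 beside 732) it was 1 beside 380 with only the groups compared and 8 beside 3164 with weights. Removal of the 3 arrays that stand apart left 1 oligo 1 array, so counts of calls without them are not given. Array weights rested largely on 1 array, oligo 1 array 3, at a weight of 8.92. The median change of the members in the mean comparison was 0.038 with weights and 0.054 without the 3 arrays, with oligo 1 against sirEGFP it was 0.16 without dim genes (which include 7 members), and with oligo 2 against sirEGFP it was 0.078 with weights. The causes were not tested.

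Leaving out 1 array at a time gave 1 to 4 members called in the mean comparison (108 to 722 of all genes). Against sirEGFP it gave 0 to 2 with oligo 1 (155 to 863) and 2 to 3 with oligo 2 (198 to 627). Against Mock it gave 0 to 1 with oligo 1 (244 to 674) and 3 to 5 with oligo 2 (307 to 1044). With sirEGFP against Mock it gave 0 (0 to 1), and between the oligos 0 to 2 (328 to 833). The matching ranges of the median change were 0.056 to 0.17, 0.081 to 0.13, 0.071 to 0.20, 0.027 to 0.14, 0.031 to 0.16, -0.063 to 0.027 and -0.0098 to 0.044. The mean Ubtf change ranged from -0.73 to -0.41. It was called after quantile normalization (-0.60, adjusted p = 0.0435), without dim genes (-0.58, 0.0456), with the block (-0.58, 0.00715), with weights (-0.62, 0.00386) and with the pooled control (-0.67, 0.0041). Of 18 same-numbered pairs of arrays 12 had deviations correlated at over 0.1 (range -0.24 to 0.55). The 36 differently numbered pairs from different groups ranged from -0.62 to 0.49. In the comparisons where not every pair did, the replicate block added calls of Trim21 (adjusted p = 0.00833 for the mean of both oligos, 0.0154 for oligo 1 against sirEGFP, 0.0387 and 0.0315 against Mock), Irf1 and Sting1 (mean, 0.0498 and 0.0375), Xaf1, Stat3, Eif2ak2, Psme1 and Ubtf (oligo 1 against sirEGFP, 0.0172 to 0.0433), Samd9l (oligo 1 against Mock, 0.0415) and Psme1 (oligo 2 against Mock, 0.0445), and no call of a named gene was lost. The deposited values give no measure of signal over background.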
